A study of Rattus norvegicus with 5 samples.

Results

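The genes described here are the CD-numbered surface antigens of rat blood cells, that is, the genes whose symbol carries a number of the cluster of differentiation scheme. They were taken from the array annotation by symbol: a probe with exactly 1 gene symbol, beginning with Cd and a digit, was kept. Cd2ap, Cd2bp2, Cd3d, Cd5, Cd8b, Cd14, Cd74 and Cd79b were left out by name, with earlier results of these data known. This gave 33 probes for 32 genes, of 26856 probes in the series and 5990 genes with a named probe; Cd36 had a pair of probes and is given by the brighter one.

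The cells were blood leucocytes enriched for myeloid-derived suppressor cells (MDSCs), immature myeloid cells that can restrain T cells, and RNA was read on a 1-colour rat microarray. Tolerant LEW.1A rats (3 arrays) had been given a LEW.1W kidney, mismatched at MHC class I and II, and the antibody JJ319 against CD28, while syngeneic LEW.1A rats (2 arrays) had been given a LEW.1A kidney and are listed with no antibody. Both kidneys of the recipient were removed 7 days after transplantation, as stated for the allografts. In both groups blood was taken 100 days after transplantation, kidney grafts for which an age is given came from animals of 8 to 12 weeks, and no age was found for the recipients. Leucocytes freed of erythrocytes were depleted with antibodies to CD3 and to MHC class II, and those binding antibodies to CD80 and CD86 were then collected on a magnetic sorter, so that 2 of the 32 genes encode the proteins on which the cells were chosen. The design text speaks of 3 recipients per group, and whether an array holds 1 animal or a pool is not given, so the p-values below cover only how far these samples differ from one another, which can be technical.

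CD antigens are proteins of the leucocyte surface defined by the antibodies that bind them. They belong to unrelated families: receptors that start a signal in T cells and the coreceptors beside them, pairs of costimulatory ligand and receptor that set whether a T cell responds, adhesion molecules, tetraspanins that organise other proteins in the membrane, scavenger receptors, and regulators that shield a cell from complement or from phagocytosis. Myeloid cells carry CD80 and CD86, which bind CD28 on T cells, and this pair of proteins links the sort to the antibody the tolerant rats received.

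Several facts of the arrays bear on all values. Median raw signal lay between 563 and 758 on the tolerant arrays and at 798 and 676 on the syngeneic ones. Probes of olfactory receptors (464 probes), assumed here to be mostly silent in blood cells, gave each array's background level as their 95th percentile. In log2 units this was 11.20, 10.72 and 10.71 for the tolerant arrays in order of their number, against 10.73 and 10.80 for the syngeneic ones. Syngeneic array 2 stood apart: it correlated with the other arrays at 0.829 to 0.853, whereas the other 4 correlated with each other at 0.882 to 0.917. On it Ptprc, the pan-leucocyte antigen CD45, read 8.29, the floor set for low values, against 13.74, 13.99 and 14.56 on the tolerant arrays and 14.42 on syngeneic array 1. Itgam, the CD11b chain, listed here as a monocyte and macrophage marker, read 12.00, 12.18 and 13.38 on the tolerant arrays and 12.87 on syngeneic array 1. On syngeneic array 2 Itgam read 9.38, at background. RT1-Da, an MHC class II chain, read 16.95, 18.64 and 17.36 on the tolerant arrays and 17.23 and 15.17 on the syngeneic arrays, which exceeded background on all 5 in spite of the depletion by an antibody to class II. Results that rest on syngeneic array 2 are given with and without it.

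To show the genes behind the results, RefSeq promoter windows (build GRCr8, 250 bases before to 50 after the gene start, 5′ to 3′ on the gene's own strand) are printed for 4 antigens whose signal was lower on every tolerant array than on every syngeneic array. Cd2 and Cd247 are receptors of T and NK cells, and Cd63 and Cd151 are tetraspanins. A window was found for 25 of the 32 genes. Capitals mark matches, on either strand, to the letters TGTGGT (the core bound by Runx factors), GGAAGT (an Ets core) or CCGCCC (a GC box); TATAAA was also searched and was in none of the 4, and no matches overlapped.
Cd2 (chr2:191412610-191412909, minus strand): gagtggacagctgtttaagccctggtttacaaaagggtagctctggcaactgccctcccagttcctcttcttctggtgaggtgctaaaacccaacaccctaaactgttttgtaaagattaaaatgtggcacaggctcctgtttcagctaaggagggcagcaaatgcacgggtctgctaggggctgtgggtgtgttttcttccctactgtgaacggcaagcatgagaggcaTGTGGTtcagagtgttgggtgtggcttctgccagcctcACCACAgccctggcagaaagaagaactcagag
Cd247 (chr13:80576019-80576318, plus strand): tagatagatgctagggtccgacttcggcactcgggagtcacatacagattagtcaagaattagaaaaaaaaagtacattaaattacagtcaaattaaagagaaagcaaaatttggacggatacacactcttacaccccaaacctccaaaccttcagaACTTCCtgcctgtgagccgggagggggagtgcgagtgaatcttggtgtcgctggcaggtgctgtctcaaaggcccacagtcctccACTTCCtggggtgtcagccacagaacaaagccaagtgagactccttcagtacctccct
Cd63 (chr7:1921894-1922193, plus strand): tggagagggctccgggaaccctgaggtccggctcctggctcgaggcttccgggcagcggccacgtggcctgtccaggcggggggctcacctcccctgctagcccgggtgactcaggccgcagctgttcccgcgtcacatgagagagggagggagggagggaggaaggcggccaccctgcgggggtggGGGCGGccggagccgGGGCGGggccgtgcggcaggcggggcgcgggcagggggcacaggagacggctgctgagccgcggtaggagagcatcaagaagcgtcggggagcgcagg
Cd151 (chr1:205994050-205994349, plus strand): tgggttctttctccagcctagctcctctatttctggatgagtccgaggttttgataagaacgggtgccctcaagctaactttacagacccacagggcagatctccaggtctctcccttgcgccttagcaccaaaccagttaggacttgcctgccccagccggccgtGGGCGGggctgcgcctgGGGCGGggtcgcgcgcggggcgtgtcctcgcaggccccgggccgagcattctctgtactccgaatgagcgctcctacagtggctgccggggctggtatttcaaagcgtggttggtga
The Cd2 window holds TGTGGT once on each strand and the Cd247 window holds GGAAGT on the other strand at 2 places, with 51.7% and 48.0% G and C. The Cd63 and Cd151 windows each hold CCGCCC at 2 places on the other strand and have 75% and 61.7% G and C, against a median of 51.7% over all 33469 windows. Of all windows, 17.3% hold TGTGGT, 22.6% GGAAGT, 33.1% CCGCCC and 14.2% TATAAA. Over the 26 windows of the antigens (Cd80 has 2) the shares were 15.4%, 19.2%, 42.3% and 7.69%. Cd46 and Cd276 also had lower tolerant values without overlap, and their windows are not printed. The Cd46 window holds TGTGGT and the Cd276 window holds CCGCCC. A match describes letters and shows no binding.

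Of the 32 antigens, 10 read above background on all 5 arrays (31.2%, against 16.6% of all probes): Cd164, Cd36, Cd37, Cd44, Cd47, Cd48, Cd53, Cd59b, Cd63 and Cd82. At the other end, 6 were at background on every array: Cd6, Cd80, Cd93, Cd200, Cd200r1 and Cd276. The remaining 16 were above it on some arrays. Among these, 6 were at background on all 3 tolerant arrays and above it on 1 or 2 syngeneic arrays (Cd28, Cd40lg, Cd46, Cd52, Cd151 and Cd247; 18.8% of the 32, against 5.87% of all probes). For 0 was a tolerant array above background with both syngeneic arrays at it (against 6.07% of all probes). Another 4, Cd1d1, Cd4, Cd81 and Cd244l1, were above background on all tolerant arrays and on syngeneic array 1 but not on syngeneic array 2 (12.5%, against 2.23% of all probes).

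**Figure D1:**
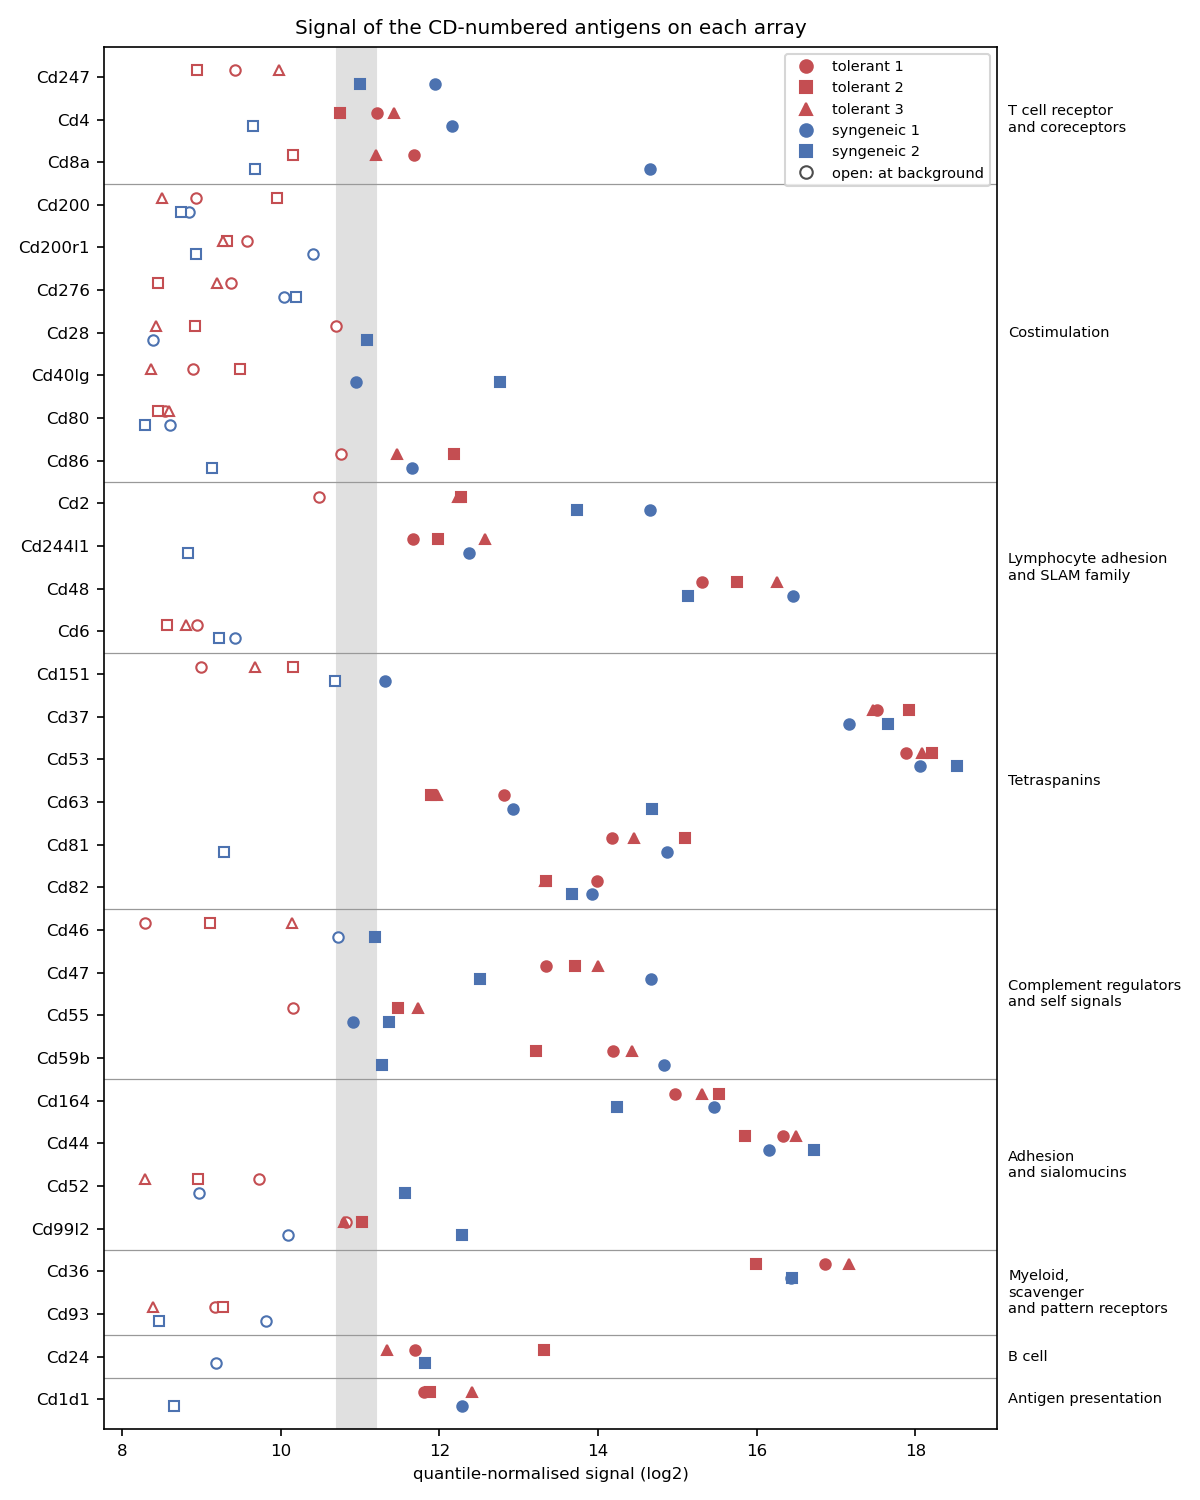
Quantile-normalised log2 signal (x axis) of each of the 32 antigens (rows, grouped by role) on the 3 tolerant arrays (red, upper symbols of a row) and the 2 syngeneic arrays (blue, lower symbols). Open symbols are at or below that array's background and the grey band spans the 5 background levels; Cd53 and Cd37 lie well right of the band on every array, and Cd81 is open on syngeneic array 2 alone.

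A probe was tested where its mean log2 signal reached the median over all probes. In all, 28 of the 32 antigens were tested and Cd6, Cd80, Cd93 and Cd200 were not. Cd28, Cd40lg, Cd46, Cd52, Cd200r1 and Cd276 reached the filter only through the syngeneic arrays, so their inclusion favoured lower values in tolerant cells. After adjustment over all 13428 tested probes with limma, 0 of the 28 antigens passed an adjusted p of 0.05, while 0.0447% of all probes did (6 probes). At an unadjusted p under 0.05, 7 of the 28 were lower in tolerant cells (25%, against 3.38% of all tested probes): Cd2, Cd40lg, Cd46, Cd63, Cd151, Cd247 and Cd276, of which Cd40lg, Cd46 and Cd276 belong to those that passed through the syngeneic arrays. At the same threshold 0 were higher (against 1.99% of all probes). The same 7 were the tested antigens whose groups did not overlap with tolerant values below syngeneic ones (against 10.4% of all probes), and for 0 did the groups separate the other way (against 9.74%). These counts do not cover the CD-numbered genes left out of the set. Among those, Cd79b and Cd14 were higher in tolerant cells without overlap (differences of 2.75 and 1.22). Cd3d and Cd5 were lower without overlap (-3.49 and -5.44). Cd5 passed the adjusted threshold (limma, adjusted p = 0.0398) but had reached the filter only through the syngeneic arrays. The median difference, tolerant minus syngeneic, was -0.23 on the log2 scale over the tested antigens, 17 lower and 11 higher, and 0.0 over all tested probes; with no filter it was -0.21 over all 32 antigens, 19 lower and 13 higher, and 0.01 over all probes. Standard errors of the antigens' differences ran between 0.40 and 1.52 with a median of 0.66.

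**Figure D2:**
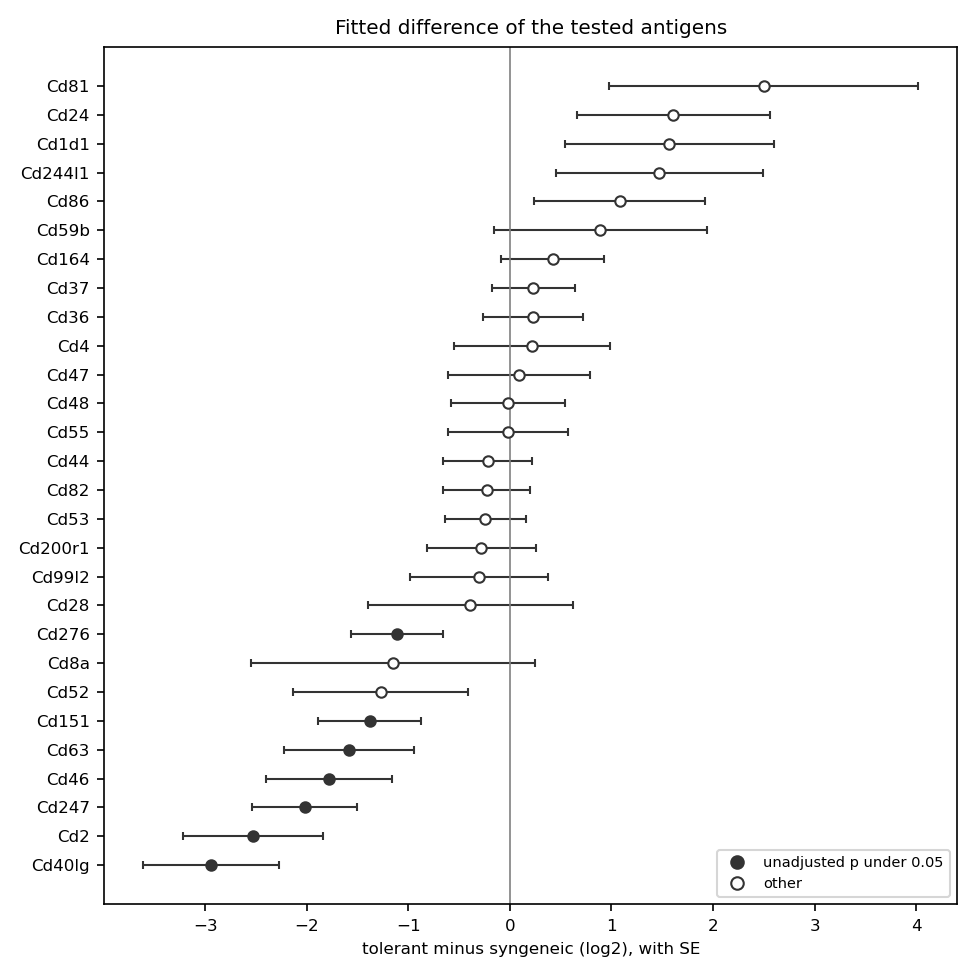
Fitted log2 difference, tolerant minus syngeneic (x axis), with its standard error (bars), for the 28 tested antigens (rows, highest difference at the top). Filled points have an unadjusted p under 0.05; the 7 of them all lie left of 0, Cd40lg farthest at -2.94, and the bars of Cd81 and Cd8a are the widest.

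The T cell receptor signalling chain and the coreceptors gave a lower value for Cd247 and values that depended on 1 array for Cd4 and Cd8a. Cd247 encodes the zeta chain, which passes the signal of the T cell receptor and of several NK cell receptors. It read 9.43, 8.95 and 9.98 on the tolerant arrays and 11.95 and 11.00 on the syngeneic arrays. All tolerant values were at background and both syngeneic values above it. The fitted difference was -2.02 ± 0.52 (SE; limma, unadjusted p = 0.00778, adjusted p = 0.631), and because the tolerant arrays were at background the measured ratio is a bound, at least 1.52-fold lower. In a bulk sample, fewer cells of a type and less RNA per cell cannot be told apart, here and in every result below. Cd8a, the alpha chain of the coreceptor CD8, which in rats is also carried by NK cells, read 11.68, 10.16 and 11.20 on the tolerant arrays and 14.66 and 9.68 on the syngeneic arrays. The syngeneic arrays thus lay above and below all tolerant ones. Its difference was -1.15 ± 1.40 (SE) with both syngeneic arrays, -3.64 against syngeneic array 1 alone and 1.34 against syngeneic array 2 alone. Cd4, the coreceptor of helper T cells, which rat monocytes and macrophages also carry, read 11.21, 10.75 and 11.43 on the tolerant arrays and 12.16 and 9.65 on the syngeneic arrays, again on both sides of the tolerant values. Its difference of 0.22 ± 0.77 (SE) became -1.03 without syngeneic array 2.

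Among ligands and receptors of costimulation, Cd80 was at background on every array, Cd86 was above it on 3 of 5, and Cd40lg had the widest difference. Cd80, a B7 ligand of CD28 and CTLA4 on which the cells were collected, read 8.54, 8.45 and 8.59 on the tolerant arrays and 8.61 and 8.29 on the syngeneic arrays, at background throughout. Cd86, the other ligand, read 10.76, 12.19 and 11.47 on the tolerant arrays and 11.66 and 9.14 on the syngeneic arrays. It was above background on 2 of 3 tolerant arrays and on 1 of 2 syngeneic arrays, and the groups overlapped. The difference of Cd86 was 1.08 (95% interval -0.96 to 3.12), and it was -0.18 against syngeneic array 1 alone and 2.34 against syngeneic array 2 alone. Cd28 itself, the receptor that JJ319 binds, read 10.70, 8.92 and 8.43 on the tolerant arrays and 8.39 and 11.09 on the syngeneic arrays. Only the value on syngeneic array 2 was above background, and the difference of -0.39 ± 1.01 (SE) was smaller than its error; it was 0.97 without syngeneic array 2 and -1.74 without syngeneic array 1.

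Cd40lg encodes the CD40 ligand, by which activated T cells and platelets stimulate B cells and myeloid cells. It read 8.90, 9.49 and 8.36 on the tolerant arrays and 10.95 and 12.77 on the syngeneic arrays. No tolerant array was above background and both syngeneic arrays were, syngeneic array 1 by little. The fitted difference was -2.94 ± 0.67 (SE; limma, unadjusted p = 0.00432, adjusted p = 0.532) and the bound at least 1.98-fold lower; by p the probe stood at place 109 of the 13428. The difference was -2.03 against syngeneic array 1 alone and -3.86 against syngeneic array 2 alone. Cd276, the B7 relative B7-H3, read 9.37, 8.45 and 9.20 on the tolerant arrays and 10.04 and 10.20 on the syngeneic arrays; all 5 values were at background, so its difference of -1.11 gives no fold. Cd200, a ligand that restrains myeloid cells, and its receptor Cd200r1 lay between 8.50 and 10.41 on all arrays, at background as well.

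The lymphocyte adhesion group holds a ligand, Cd48, and its receptors Cd2 and Cd244l1, which RefSeq also lists as Cd244 or 2B4; in rodents CD48 binds both. The ligand did not separate the groups and Cd2 did. Cd48 read 15.31, 15.75 and 16.26 on the tolerant arrays and 16.46 and 15.13 on the syngeneic arrays, with a difference of -0.02 (95% interval -1.39 to 1.35). Cd2, an adhesion receptor of T and NK cells, read 10.48, 12.27 and 12.23 on the tolerant arrays and 14.65 and 13.73 on the syngeneic arrays. Every tolerant value was below both syngeneic values, and tolerant array 1 was at background. The difference was -2.53 ± 0.69 (SE; limma, unadjusted p = 0.0101, adjusted p = 0.687), 5.76-fold lower in tolerant cells with part of it measured against background, and it was -2.98 and -2.07 against syngeneic arrays 1 and 2 alone. Cd244l1, the receptor 2B4 of NK and myeloid cells, read 11.67, 11.98 and 12.57 on the tolerant arrays and 12.38 and 8.83 on the syngeneic arrays. Syngeneic array 1 lay among the tolerant arrays and syngeneic array 2 far below them, so the difference of 1.47 ± 1.02 (SE) became -0.30 without that array. Cd6, a receptor of T cells, was at background on all arrays, between 8.57 and 9.43.

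Markers of T and NK cells had lower values in tolerant cells alongside Cd2, Cd247 and Cd40lg. The NK cell list (Klrd1, Klre1, Gzmk, Nkg7 and others) had 10 tested genes, of which 3 passed the adjusted threshold, all lower in tolerant cells; 8 were at background on every tolerant array, and 7 of the 10, the 3 among them, had reached the filter only through the syngeneic arrays, so the list's median of -3.11 is no support. Its mean signal was log2 9.57, 9.30 and 9.38 on the tolerant arrays and 13.44 and 12.90 on the syngeneic arrays. Klrk1, also in the NK cell list, did not separate the groups. That gene read 11.66, 11.10 and 12.70 on the tolerant arrays and 13.29 and 10.44 on the syngeneic arrays, a difference of -0.04. The T cell list had 6 tested genes, of which 1 (Cd5) passed, lower in tolerant cells; 4 of the 6, Cd5 among them, had reached the filter only through the syngeneic arrays. The median was -3.12, with mean signals of 9.63, 9.47 and 9.39 on the tolerant arrays and 12.09 and 13.16 on the syngeneic arrays; Cd28 is in this list and among the antigens. Cd3d, part of the CD3 complex targeted by the depletion, read 10.91, 10.45 and 11.14 on the tolerant arrays and 13.88 and 14.76 on the syngeneic arrays. The neutrophil list (S100a8, S100a9 and others) had 7 tested genes, 3 of which had reached the filter only through the syngeneic arrays, with a median of -2.84 and 0 past the adjusted threshold (5 at an unadjusted p under 0.05), with mean signals of 11.58, 10.13 and 11.23 on the tolerant arrays and 13.59 and 14.45 on the syngeneic arrays. For these 3 lists the tolerant and syngeneic arrays did not overlap in mean signal. Each mean holds genes that had reached the filter only through the syngeneic arrays, which favours this separation, so it is no support. The 8 monocyte and macrophage genes had 0 past the adjusted threshold and 0 at an unadjusted p under 0.05, a median of 0.78, and means of 14.96, 14.58 and 15.02 on the tolerant arrays and 15.06 and 13.58 on the syngeneic arrays. Erythroid genes (3 tested, among them the beta globins, all 3 past the filter only through the syngeneic arrays) averaged 8.46, 8.70 and 8.62 on the tolerant arrays and 13.03 and 17.01 on the syngeneic arrays, the last value on syngeneic array 2. The part of these cells in the values of Cd2, Cd247, Cd40lg and the other antigens was not tested.

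**Figure D3:**
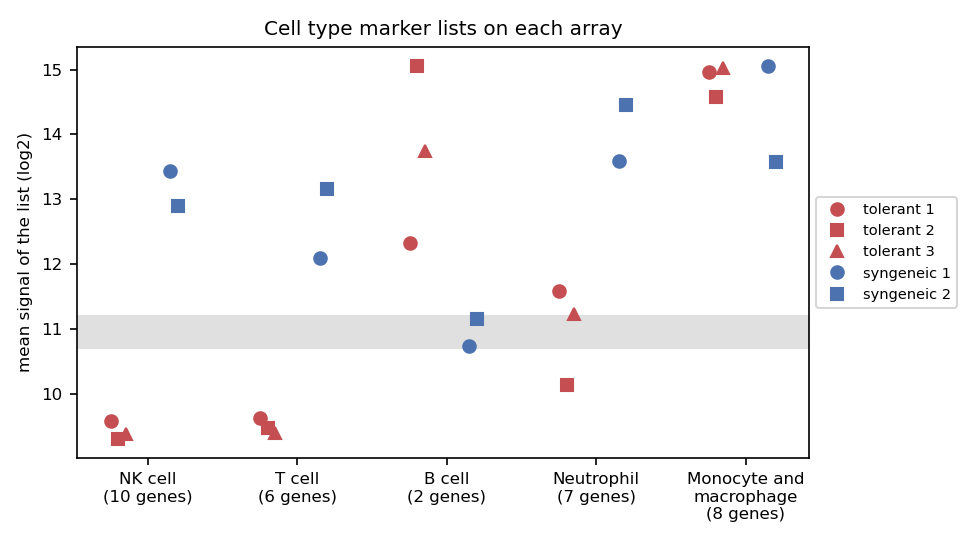
Mean log2 signal of the tested genes of 5 cell type marker lists (y axis) on the 3 tolerant arrays (red) and the 2 syngeneic arrays (blue); the grey band spans the background levels of the arrays. The NK cell and T cell means lie below 10 on all tolerant arrays and above 12 on both syngeneic arrays, while the monocyte and macrophage means overlap. The NK cell, T cell and neutrophil lists include genes that reached the filter only through the syngeneic arrays, which favours their separation.

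The tetraspanins, membrane proteins with 4 passes that hold partner proteins together, were mostly above background on every array, and Cd63 and Cd151 were lower in value. Cd53, carried by all leucocytes, read 17.88, 18.21 and 18.09 on the tolerant arrays and 18.06 and 18.52 on the syngeneic arrays, and Cd37, abundant on B cells and present on myeloid cells, read 17.52, 17.92 and 17.47 on the tolerant arrays and 17.16 and 17.65 on the syngeneic arrays. Their differences of -0.24 (95% interval -1.21 to 0.74) and 0.23 (-0.77 to 1.24) were both smaller than their standard errors, 0.40 and 0.41. Cd82 likewise overlapped, at 13.99, 13.35 and 13.33 on the tolerant arrays and 13.92 and 13.67 on the syngeneic arrays. Cd63, a tetraspanin of lysosomes and secretory granules that appears on the surface when granules are released, read 12.81, 11.90 and 11.97 on the tolerant arrays and 12.93 and 14.68 on the syngeneic arrays. The groups did not overlap, but the highest tolerant value and the lower syngeneic value lay closer to each other than either did to the rest of its group. The difference was -1.58 ± 0.64 (SE; limma, unadjusted p = 0.0486, adjusted p = 0.907), 2.98-fold lower, and -0.70 without syngeneic array 2. Cd151, a partner of integrins, read 9.0, 10.16 and 9.68 on the tolerant arrays and 11.31 and 10.68 on the syngeneic arrays; only syngeneic array 1 was above background. Its difference was -1.38 ± 0.51 (SE, with limma unadjusted p = 0.0334, adjusted p = 0.895). Measured against background the ratio was 1.09-fold lower, which is no minimum because syngeneic array 2 was at background too.

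Cd81, a tetraspanin of the B cell coreceptor that other leucocytes also carry, had the widest spread within a group. It read 14.18, 15.10 and 14.45 on the tolerant arrays and 14.87 and 9.29 on the syngeneic arrays. Syngeneic array 1 lay inside the tolerant range and syngeneic array 2 was at background, with a gap to the next lowest array of -4.89 on the log2 scale. The difference was 2.50 ± 1.52 (SE) with all arrays, -0.29 without syngeneic array 2, and 5.29 without syngeneic array 1, when Cd81 passed the adjusted threshold (limma, adjusted p = 0.0490). Tested antigens with syngeneic array 2 lowest by more than 2 on the log2 scale numbered 3 of 28, Cd81, Cd1d1 and Cd244l1 (10.7%, against 3.28% of all tested probes).

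Of the regulators that protect a cell, Cd46 was lower in value and the others depended on syngeneic array 2 or overlapped. Cd47, which binds SIRPα on phagocytes and inhibits engulfment, read 13.34, 13.71 and 14.00 on the tolerant arrays and 14.67 and 12.51 on the syngeneic arrays, with a difference of 0.09 ± 0.70 (SE) that was -0.99 without syngeneic array 2. Cd59b, which RefSeq also lists as Cd59, the inhibitor of the complement pore, read 14.19, 13.22 and 14.43 on the tolerant arrays and 14.83 and 11.28 on the syngeneic arrays, and its difference of 0.89 ± 1.05 (SE) was -0.89 without that array. Both genes thus had syngeneic array 1 above and syngeneic array 2 below every tolerant array. Cd55, which speeds the decay of complement convertases, read 10.15, 11.48 and 11.73 on the tolerant arrays and 10.91 and 11.37 on the syngeneic arrays, with a difference of -0.02 ± 0.59 (SE). Cd46, a complement cofactor that in rodents is found mainly in testis, read 8.29, 9.11 and 10.14 on the tolerant arrays and 10.72 and 11.19 on the syngeneic arrays. Only syngeneic array 2 was above background. The fitted difference was -1.78 ± 0.62 (SE, with limma unadjusted p = 0.0279, adjusted p = 0.881). Measured against background the ratio was only 1.06-fold, which is no minimum because syngeneic array 1 was at background too.

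Adhesion molecules and sialomucins were above background on every array (Cd44 and Cd164) or on only some arrays (Cd99l2 and Cd52). They gave 0 differences at an unadjusted p under 0.05 (limma). Cd44, the hyaluronan receptor of leucocytes, read 16.33, 15.85 and 16.49 on the tolerant arrays and 16.16 and 16.72 on the syngeneic arrays, a difference of -0.22 (95% interval -1.28 to 0.84). Cd164, a sialomucin of blood progenitor cells, read 14.97, 15.52 and 15.31 on the tolerant arrays and 15.46 and 14.24 on the syngeneic arrays, a difference of 0.42 (-0.82 to 1.66). For both, the groups overlapped. Cd99l2, a relative of the adhesion molecule CD99, read 10.83, 11.03 and 10.80 on the tolerant arrays and 10.09 and 12.28 on the syngeneic arrays. Cd52, a short glycoprotein of lymphocytes and monocytes, read 9.73, 8.96 and 8.29 on the tolerant arrays and 8.97 and 11.57 on the syngeneic arrays. Both were highest on syngeneic array 2, and without it their differences changed sign, to 0.80 for Cd99l2 and 0.03 for Cd52.

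The scavenger receptor, the B cell antigen and the antigen-presenting molecule overlapped between groups. Cd36, a scavenger receptor of monocytes and platelets that takes up oxidised lipids, read 16.86, 15.99 and 17.16 on the tolerant arrays and 16.43 and 16.44 on the syngeneic arrays. Its second probe read 13.44, 12.41 and 14.50 on the tolerant arrays and 14.12 and 9.0 on the syngeneic arrays. The brighter probe gave 0.23 ± 0.49 (SE) and the other 1.89 ± 1.48 (SE), and on syngeneic array 2 only the other probe was at background. Without that array the brighter probe gave 0.24 and the other -0.67, so the probes of this gene disagreed in direction there. Cd93, a receptor of monocytes and endothelium, was at background on all arrays. Cd24, a glycoprotein of immature and B lymphocytes and of neutrophils, read 11.70, 13.32 and 11.34 on the tolerant arrays and 9.19 and 11.82 on the syngeneic arrays, with a difference of 1.61 ± 0.95 (SE; limma, unadjusted p = 0.140) that was 2.92 without syngeneic array 2 and 0.30 without syngeneic array 1. Both tested B cell markers, Cd79b and Fcer2, had higher values in tolerant cells (median 2.77, 0 past the adjusted threshold). Fcer2 had reached the filter only through the tolerant arrays, so this median is no support. The mean of both markers was highest, at 15.06, on tolerant array 2, the array highest in Cd24. The part of B cells in the Cd24 values was not tested. Cd1d1, which presents lipids to NKT cells, read 11.81, 11.88 and 12.41 on the tolerant arrays and 12.28 and 8.65 on the syngeneic arrays, with a difference of 1.57 ± 1.03 (SE) that became -0.25 without syngeneic array 2.

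Many of the higher values in tolerant cells rested on syngeneic array 2. Of the 11 tested antigens with a positive difference over all arrays, 3 (Cd24, Cd36 and Cd37) were still positive against syngeneic array 1 alone (27.3%, against 70.5% of all tested probes with a positive difference). Without syngeneic array 2 the sign changed for 13 of the 28 tested antigens (46.4%, against 30.1% of all tested probes).

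**Figure D4:**
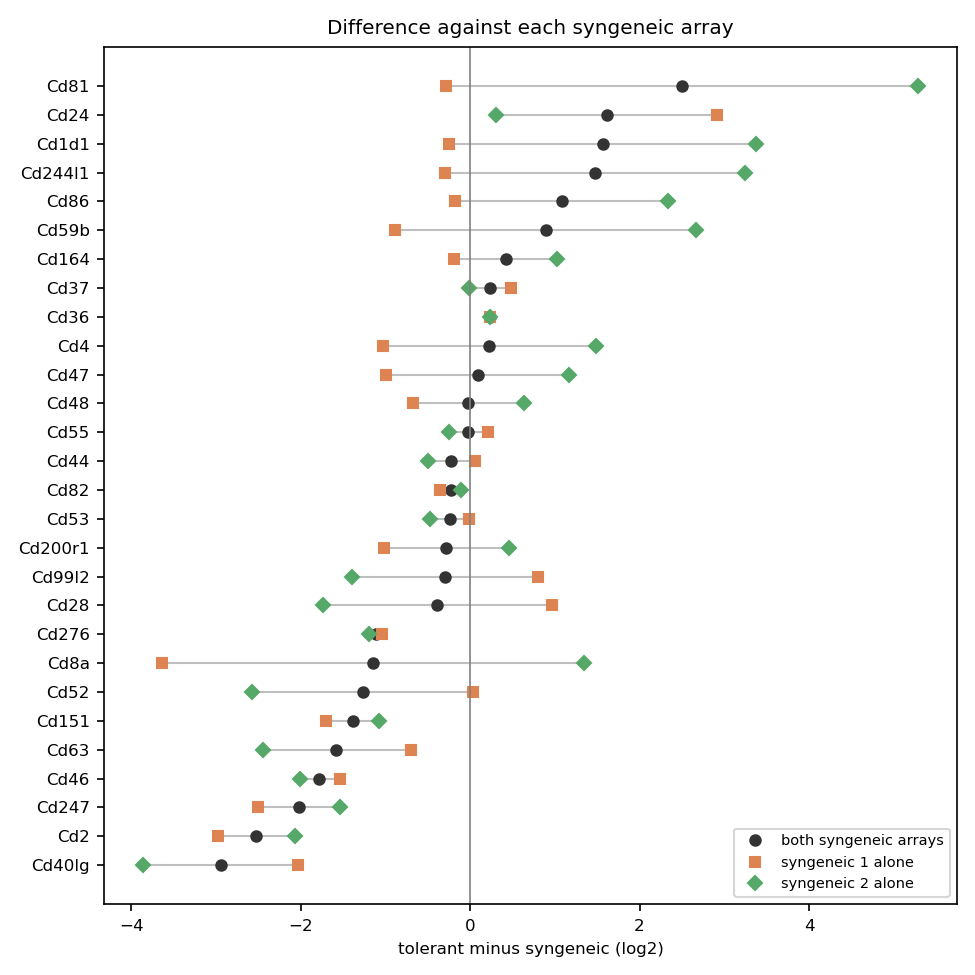
Log2 difference, tolerant minus syngeneic (x axis), of the 28 tested antigens (rows) with both syngeneic arrays (black circles), with syngeneic array 1 alone (orange squares) and with syngeneic array 2 alone (green diamonds). The symbols of Cd81 lie at 2.50, -0.29 and 5.29, on both sides of 0, and those of Cd40lg at -2.94, -2.03 and -3.86, all left of 0.

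Genes beside the antigens were examined in 2 lists. The CD28 and B7 pathway list (receptors, ligands and signalling proteins under other symbols) had 18 genes, of which 10 had a named probe and 9 were tested; 0 passed the adjusted threshold, the median difference was -0.32, and 1, Lat, had an unadjusted p under 0.05. Lat, the adaptor that links the T cell receptor to its downstream pathway, read 9.24, 10.26 and 8.29 on the tolerant arrays and 14.30 and 15.00 on the syngeneic arrays, a difference of -5.39 (limma, adjusted p = 0.132) and a bound of at least 13.7-fold lower; like Klrd1, it reached the filter only through the syngeneic arrays. CD antigens whose genes carry other symbols numbered 54, with 32 on a named probe and 23 tested; 1 of them, Klrd1 (CD94 of NK cells), differed past the threshold, lower in tolerant cells by a bound of at least 16.5-fold (limma, adjusted p = 0.0362), and the median difference was 0.16. At an unadjusted p under 0.05, Klrd1, Klrb1a (CD161) and Il2rb (CD122) were lower in tolerant cells and Fcer2 (CD23) was higher. Il2rb too had reached the filter only through the syngeneic arrays, and Fcer2 only through the tolerant arrays. Klrd1 read 8.53, 8.47 and 8.90 on the tolerant arrays, all at background, and 14.72 and 15.12 on the syngeneic arrays.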

How the data were processed

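RNA of magnetically sorted blood cells was hybridised to 5 arrays, 3 tolerant and 2 syngeneic, grouped by sample title. The deposited raw table gives the intensity of each probe on a linear scale, and the deposited series matrix gives the same arrays on the log2 scale, already quantile normalized by the authors: these values matched intensities quantile normalized here within 0.0001024. Background treatment, scanner software, detection calls and batches are not stated in the sources used here. Per the labels' protocols, RNA was extracted with TRIzol and amplified.

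The log2 values were floored at their 10th percentile (8.29); probes with a mean at or above the median of probe means (9.40), 13428 in all, were fitted with lmFit and eBayes of limma 3.58.1 in R 4.3.3, with Benjamini-Hochberg adjustment over all of them. Every adjusted or unadjusted p comes from that fit, except where the text names another fit. Differences are tolerant minus syngeneic. Where all arrays of a group were at background (the 95th percentile of olfactory receptor probes), a fold is a bound against the higher of background and the probe's own value. For Cd46 and Cd151, where a syngeneic array was at background as well, it is no minimum. The number of arrays limits the precision. Gene names come from the platform annotation in GEO; all 32 Entrez identifiers were in the RefSeq table with 0 symbols changed. The test was also run on simulated data with independent normal noise and no array that stood apart. The outcome is not given here.

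The members and gene lists were chosen with earlier results of these data known. Named with values were Cd80 and Cd86, antigens with an adjusted or unadjusted p under 0.05, those without overlap and a difference of at least 1, the 3 brightest of each role group and the one with the widest range within a group; the others are given to account for all. Alternatives were the raw table, scaling, floor, filter, variance prior, a replicate block, the background percentile and leaving out each array.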

Additional observations from a re-analysis of the deposited data

How the results depend on the processing

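The count of all probes past the adjusted threshold, 6 as reported, was 53 with raw intensities scaled to a common median, 81 without normalization, 14 with a trended prior, 0 without the filter (fewer calls among more probes tested) and 0 with a replicate block, and between 0 and 76 when 1 array was left out (76 without syngeneic array 1, 0 without each other array). Antigens past the adjusted threshold numbered 1 without normalization (Cd40lg, adjusted p = 0.0405, range over its alternatives 0.0405 to 1.00) and 0 to 1 when 1 array was left out (Cd81 without syngeneic array 1). Antigens at an unadjusted p under 0.05 numbered 2 under the stricter filter, which tests fewer probes, and 4 to 11 when 1 array was left out: 4 without tolerant array 2 or 3, and 11 without syngeneic array 1 (5 lower, 6 higher). Antigens whose groups did not overlap numbered 7 to 23 in those fits, 17 without syngeneic array 2 and 23 without syngeneic array 1, since a group of 1 array overlaps less. The median difference of the antigens stayed on the negative side except under the stricter filter (0.16). Without syngeneic array 1 it was -0.06, close to the -0.04 of all probes. Without syngeneic array 2 it was -0.36, against 0.02 for all probes, so its size depended on syngeneic array 1. Scaling to a median and no normalization moved the median of all probes to -0.16 and -0.37. That of the antigens moved to -0.40 and -0.61, a gap of -0.24 in both, so single differences there are to be read against that shift. The 7 antigens with an unadjusted p under 0.05 had a negative difference in every alternative in which they were tested, which the lack of overlap between their groups fixes where arrays are left out. Of 28 antigens named by rule 26 were tested, and 16 of these changed sign under 1 or more alternatives. Without normalization Cd164 gave -0.09, Cd36 -0.33, Cd37 -0.33, Cd4 -0.11 and Cd47 -0.34. With median scaling Cd36 gave -0.12, Cd37 -0.12 and Cd47 -0.13. With the replicate block Cd28 gave 0.07, Cd36 -0.01 and Cd47 -0.07. Replicate number 3 occurs only among the tolerant arrays, so the block gives the same differences as leaving out tolerant array 3. Leaving out 1 array gave ranges of -0.19 to 1.03 for Cd164, -0.25 to 3.38 for Cd1d1, -0.30 to 3.25 for Cd244l1, -1.74 to 0.07 for Cd28 in the 3 fits that tested it (0.97 without syngeneic array 2, where it was below the filter), -0.01 to 0.57 for Cd36, -0.01 to 0.48 for Cd37, -1.03 to 1.48 for Cd4, -0.50 to 0.06 for Cd44, -0.99 to 1.17 for Cd47, -0.68 to 0.64 for Cd48, -0.33 to 0.46 for Cd55, -0.89 to 2.67 for Cd59b, -0.29 to 5.29 for Cd81, -0.18 to 2.34 for Cd86, -3.64 to 1.34 for Cd8a and -1.39 to 0.80 for Cd99l2. Except where stated, the cause was not tested. The groups share only replicate numbers 1 and 2, whose deviations correlated at -0.103 and 0.0154. Deviations of the 2 syngeneic arrays from their mean are mirror images, so these values say little on whether the numbers pair the arrays. Pairing is thus not shown. The replicate block left 5 antigens at an unadjusted p under 0.05 (limma, 4 lower, 1 higher). Signal over background limits the values of 22 of the 32 antigens, which were at background on at least 1 array.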
